A study of Mus musculus with 7 samples.

Results

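The 10 genes described here encode matrix metalloproteinases (MMPs) and their tissue inhibitors (TIMPs): Mmp2, Mmp3, Mmp11, Mmp12, Mmp13, Mmp14, Mmp23, Timp1, Timp2 and Timp3. They were taken by symbol, 10 of the 27998 genes in a matrix of UMI counts (unique molecular identifiers, 1 per captured mRNA molecule) from single cells of the mouse mammary gland, and all 10 had counts. The study compared the glands of young and aged mice cell type by cell type. The young group held 3 virgin females aged 3–4 months (Young A, B and C) and the aged group 4 virgin females aged 13–14 months (Aged A, B, C and D), all untreated, of mixed FVB/129/C57BL/6J background and at diestrus, with 1 library of abdominal gland cells for each mouse. The 13684 cells fell into 13 cell types named by the authors, and all comparisons were made over mice, not cells.

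MMPs are zinc-dependent endopeptidases that are made as inactive proenzymes, and together they cut collagens, elastin, laminin, fibronectin and proteins that hold growth factors in the matrix. TIMPs bind the active site of the mature enzymes. At the cell surface, the membrane-anchored Mmp14 and bound Timp2 together activate pro-Mmp2, so that Timp2 can act both as an inhibitor and as part of an activating complex. In the mammary gland these proteins are known for matrix remodeling during ductal branching and during involution after weaning.

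Mmp13, Mmp12 and Mmp3 lie in 1 cluster of metalloproteinase genes on mouse chromosome 9 (GRCm38), on the plus strand, at chr9:7272514-7283331, chr9:7344381-7369499 and chr9:7445822-7455975. The other members are spread over the genome, with Mmp2 at chr8:92827291-92853420, Mmp14 at chr14:54431612-54445364, Mmp11 at chr10:75923222-75936496, Mmp23 at chr4:155650655-155653384, Timp1 at chrX:20870166-20874735, Timp2 at chr11:118301069-118355740 and Timp3 at chr10:86300372-86349506. The promoters of the 3 clustered genes are shown because Mmp12 and Mmp13 shared their main cell type while Mmp3 did not. Each line gives the 60 bases before a RefSeq transcription start, plus strand, GRCm38.p6, with capitals for the AP-1 element (TGAGTCA or TGACTCA) and for TATAAA.
Mmp13, chr9:7272454-7272513: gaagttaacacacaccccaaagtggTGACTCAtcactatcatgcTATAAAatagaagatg
Mmp12, chr9:7347314-7347373: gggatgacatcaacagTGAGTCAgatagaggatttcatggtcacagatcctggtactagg
Mmp3, chr9:7445762-7445821: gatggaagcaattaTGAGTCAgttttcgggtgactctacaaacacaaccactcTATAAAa
Of the 11 promoters found for 9 of the members (300 bases each, 250 before the start and 50 after), these 3 held the AP-1 element, which begins 35 bases before the start in Mmp13, 44 in Mmp12 and 46 in Mmp3. The other start listed for Mmp12 did not hold it. The element was searched on both strands, which read as TGAGTCA and TGACTCA, and 5.2% of all 32851 promoters of this length held it. TATAAA, searched on the given strand, was in 8.32%, and both motifs were in 0.624%. In the Mmp12 promoter shown, TATAAA begins 4 bases after the start, outside the 60 bases printed. These matches describe the letters in the window and say nothing of binding. RefSeq has no promoter for Mmp2 in the table used.

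The libraries held 6652599 to 16999625 UMIs and 1264 to 2865 cells per mouse. Of 49 marker genes of the named cell types, 45 had their highest mean level in the type they mark (Prlr, Pgr and Esr1 of HS cells were highest in HS-AV cells, and Cd3g of T and B cells in NK cells). Libraries of aged mice differed from those of young mice in how cell barcodes were written and in listed UMI totals (2263 aged and 0 young cells), so that an effect of age and one of how the libraries were handled cannot be told apart here. Between libraries, 101 barcodes were found in more than 1 mouse. Fibroblasts were 1799 of 6372 young cells (28.2%) and 194 of 7312 aged cells (2.65%), Mb macrophages 124 and 22, Ma macrophages 121 and 1, and AV cells 794 and 4026. Levels are given as CPM, the UMIs of a gene scaled to 1000000 UMIs of that cell type in that mouse, and a 3′ UMI counts 1 molecule whatever the length of the transcript.

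By the cell type of their highest mean alone, the members formed a fibroblast group, a macrophage pair and an inhibitor highest in pericytes. Mmp2, Mmp3, Mmp11, Mmp14, Mmp23, Timp1 and Timp2 had their highest mean in fibroblasts, Mmp12 and Mmp13 in Mb macrophages, and Timp3 in pericytes. These levels describe the cells and were not tested, because the cell types were built from the same counts. Mmp12 and Mmp13 were also among the genes by which the study told Mb from Ma macrophages, so their place there follows from the naming. Neighbors in the order of cell types are taken as separate only where the mean per-mouse difference in log2(CPM + 1) was larger than its SD.

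Mmp2, a gelatinase that degrades denatured and basement membrane collagen, was at 548 ± 107 CPM in fibroblasts (SD, n = 7) and 102 ± 20.7 in myoepithelial cells (n = 7), and the first exceeded the second in 7 of 7 mice. It was not detected in lymphatic endothelial cells or in T and B cells. Mmp14, the membrane-type enzyme that activates pro-Mmp2, was the most evenly spread metalloproteinase of the set, with 132 ± 55.8 CPM in fibroblasts, 96.8 ± 58.4 in Mb macrophages, 64.1 ± 19.7 in myoepithelial cells, 45.0 ± 21.4 in pericytes and 43.7 ± 8.25 in HS cells (n = 7 each). It had a UMI in all 13 types, and none of the 12 steps in its order exceeded the spread over mice. In fibroblasts, Mmp14 was low in Aged D alone, at 18.3 CPM from 2 UMIs, against 105 to 190 CPM in the other 6 mice.

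Mmp3, or stromelysin-1, which cuts many matrix proteins and activates other pro-MMPs, was at 306 ± 160 CPM in fibroblasts (n = 7) and at 22.6 ± 23.9 in Ma macrophages (n = 3), the next type. Ma macrophages held the 6 fibroblast genes named below at a mean of 6.95% of the fibroblast level. At the proportions found in fibroblasts this would bring Mmp3 to 15.6 CPM there, and the part of this RNA was not tested. Mmp11, or stromelysin-3, was the scarcest member, at 27.6 ± 24.2 CPM in fibroblasts from 146 UMIs in all mice, and 6 of the 13 types held none. Mmp23, a membrane-anchored metalloproteinase that is shed by furin-type cleavage, was at 115 ± 75.7 CPM in fibroblasts and 9.62 ± 7.27 in myoepithelial cells (n = 7 each). Its mean in lymphatic endothelial cells, the second in order, came from 1 UMI.

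Mmp12, the macrophage elastase, was at 889 ± 584 CPM in Mb macrophages, from 310 in Aged C to 2009 in Aged D (n = 7). The next type, dendritic cells, had 24.3 ± 41.0 CPM (n = 5). Mmp13, a collagenase that cuts fibrillar collagen, was at 407 ± 193 CPM in Mb macrophages, from 160 in Young A to 658 in Aged C (n = 7), and at 3.11 ± 5.57 in dendritic cells (n = 5). Ma macrophages, of which 3 mice had at least 3 cells, held 4 UMIs of Mmp12, all in Young C, and 0 of Mmp13 in 121 young cells, which allows a share of cells with a UMI of up to 2.48%.

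The 3 inhibitors differed in where they were found. Timp1 was at 96.8 ± 33.9 CPM in fibroblasts and 65.0 ± 37.1 in myoepithelial cells, which did not differ beyond the spread over mice, and at 27.9 ± 16.2 in vascular endothelial cells (n = 7 each). Timp2 was at 1954 ± 709 CPM in fibroblasts (n = 7), 998 ± 195 in Ma macrophages (n = 3) and 613 ± 329 in lymphatic endothelial cells (n = 5), of which the last 2 were not separate. Timp3, which is bound to the extracellular matrix and also blocks ADAM and ADAMTS proteases, was at 1508 ± 346 CPM in pericytes (n = 7), 1079 ± 425 in lymphatic endothelial cells (n = 5), 888 ± 223 in vascular endothelial cells (n = 7) and 590 ± 225 in fibroblasts (n = 7). Pericytes exceeded lymphatic endothelial cells in 5 of 5 mice, and the next 2 steps did not exceed the spread.

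**Figure D1:**
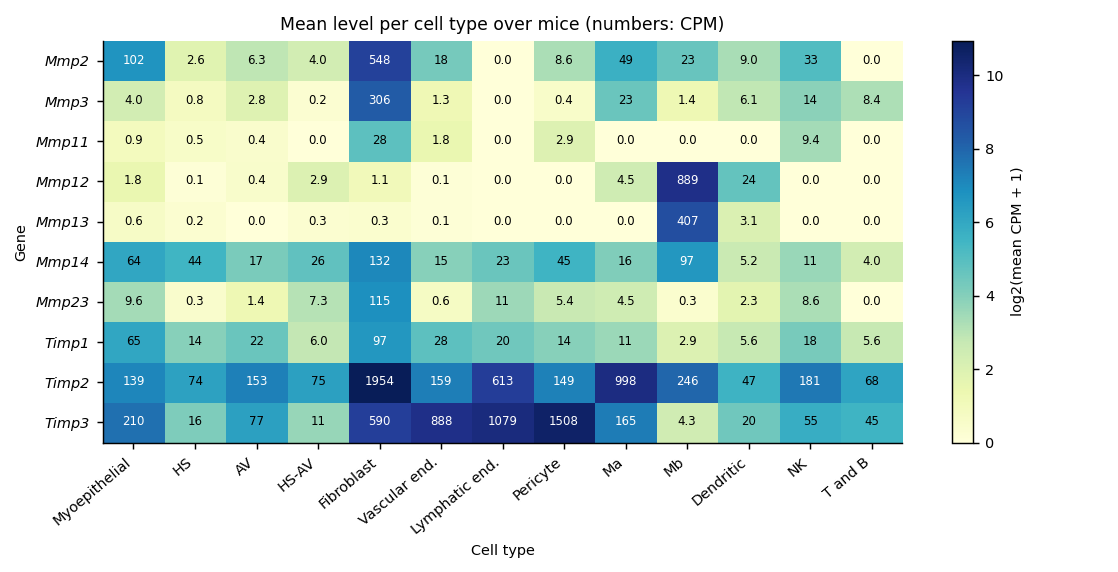
Mean level of each of the 10 genes (rows) in each of the 13 cell types (columns), in CPM averaged over the mice with at least 3 cells of the type. Color is log2(mean CPM + 1) and the numbers are the mean CPM. The 7 genes led by Mmp2 and Timp2 peak in fibroblasts, Mmp12 and Mmp13 in Mb macrophages (889 and 407 CPM) and Timp3 in pericytes (1508 CPM).

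Aged and young mice were compared gene by gene within each cell type by the edgeR quasi-likelihood test on counts summed per mouse, and a gene passed at a Benjamini-Hochberg adjusted p under 0.05 over all genes of the type and a change of at least 1.5-fold. The members had enough counts for 39 tests in 8 of the 12 cell types compared, and 9 passed, 4 higher and 5 lower in aged mice. Across all genes and the same 12 types, 12.4% of tests passed, 6.53% higher and 5.85% lower. The calls fell in fibroblasts, myoepithelial cells, AV cells and vascular endothelial cells, and they involved 6 members, while Mmp12, Mmp13, Mmp14 and Timp3 passed in none. Among the 30 tests that did not pass, 8 had an unadjusted p under 0.05. Over all genes, called ones included, the edgeR test gave such a p for 3198 of 7864 in vascular endothelial and 2716 of 6740 in myoepithelial cells. In AV cells it did so for 2550 of 11012 and in fibroblasts for 1102 of 5513. With the library totals as the scale, in place of TMM factors, 4 members were again higher and 5 lower, although the median of all genes moved by 0.361 (log2) in vascular endothelial cells, 0.272 in AV cells, 0.116 in fibroblasts and 0.109 in myoepithelial cells, and the calls over all genes moved to 679 higher and 2347 lower in vascular endothelial cells (main 1155 and 944), 188 and 851 in AV cells (main 319 and 359), 98 and 100 in fibroblasts (main 114 and 61) and 654 and 1151 in myoepithelial cells (main 863 and 997).

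In fibroblasts, the cells with the most transcripts of the family, 8 members were tested, 1 rose and 1 fell, and the largest inhibitor transcript did not pass. Over all genes of fibroblasts, 3.17% passed, 2.07% higher and 1.11% lower. Mmp23 was at 202, 179 and 203 CPM in Young A, B and C and at 69.0, 57.5, 38.0 and 54.9 CPM in Aged A, B, C and D. Every aged mouse was below every young mouse, as for 16.9% of all genes in fibroblasts without regard to direction. The fitted change was −1.60 on the log2 scale (SE 0.249, edgeR adjusted p = 0.0034), a 3.04-fold decrease. The study's own text names Mmp23 in fibroblasts of these same mice, so this call is not independent evidence.

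Mmp11 was at 8.98, 12.7 and 12.1 CPM in the young fibroblasts and at 69.0, 23.0, 12.7 and 54.9 CPM in the aged. Aged A and D were high, while Aged C, with 1 UMI, lay within the young range, so the groups overlapped. The fitted change was 2.25 (SE 0.408, edgeR adjusted p = 0.0086), from 95 UMIs in young and 51 in aged fibroblasts, 40 of the latter in Aged A. Without Aged A, B or D the gene had too few counts to be tested.

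Timp2, the most abundant inhibitor in fibroblasts, was at 1916, 2898 and 2862 CPM in young mice and 1707, 1018, 1925 and 1353 in aged mice. Aged C was just above Young A and the other aged mice were below all young mice, and the difference of −0.69 did not pass (SE 0.249, edgeR adjusted p = 0.149). Without a filter on low counts the edgeR difference was −0.94 with an adjusted p of 0.0016. Mmp3 was at 265, 183 and 226 CPM in young and at 662, 259, 266 and 283 CPM in aged fibroblasts, so that Aged A stood apart, and its difference of 0.90 did not pass (SE 0.331, edgeR adjusted p = 0.155). Without Aged A it was 0.36 for Mmp3. Mmp2, Mmp14 and Timp3 had fitted differences of −0.08, 0.09 and 0.22 in fibroblasts, each below its SE (0.242, 0.382 and 0.329), and Timp1 had −0.60 (SE 0.296, edgeR adjusted p = 0.283). Among marker lists of the 11 other types, the lists of HS cells, vascular endothelial cells, Ma and Mb macrophages were lower in all aged than in all young fibroblast sums (for vascular endothelial cells 25.3 to 34.5 against 49.1 to 141 CPM), and their part in these results was not tested.

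In vascular endothelial cells, 3 of the 5 members tested rose, namely Mmp2, Timp1 and Timp2, and none fell. Over all genes 26.7% passed in this type, 14.7% higher and 12% lower, so that calls were common. The median change was 1.66 for the 5 members and −0.05 for all genes tested. Timp1 was at 11.2, 10.3 and 15.1 CPM in young mice and 49.8, 30.7, 45.5 and 33.0 CPM in aged mice, a change of 2.10 (SE 0.263, edgeR adjusted p = 6.9e-05). Timp2 was at 90.4, 45.2 and 115 CPM in young and 222, 268, 194 and 175 CPM in aged mice, a change of 1.75 (SE 0.255, edgeR adjusted p = 0.00021). Mmp2 was at 13.6, 4.90 and 12.4 CPM in young and 22.3, 28.6, 24.1 and 23.5 CPM in aged mice, a change of 1.66 (SE 0.303, edgeR adjusted p = 0.0011). For each of the 3 genes every aged mouse was above every young mouse, while 44.8% of all genes in these cells did not overlap in either direction, and the 3 calls remained in all 15 alternative settings.

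Mmp14 in vascular endothelial cells, at 12.3 ± 3.73 CPM in aged (SD, n = 4) and 17.7 ± 6.14 in young mice (SD, n = 3), had a difference of −0.10 (SE 0.323). Timp3, the abundant inhibitor of these cells, was at 1026, 1307 and 886 CPM in young and 808, 653, 848 and 685 CPM in aged mice. These values did not overlap, but after TMM scaling the difference was −0.17 (SE 0.163, edgeR adjusted p = 0.468). RNA of fibroblasts was lower in aged vascular endothelial cells: the summed level of 6 fibroblast genes (Dcn, Col1a1, Col1a2, Col3a1, Gsn and Serping1) was 212 to 676 CPM in young and 40.1 to 176 CPM in aged mice, and all 6 had a lower mean, while the 3 members rose. Of the 11 marker lists of other cell types, 3 were lower (fibroblast, pericyte and lymphatic endothelial) and 2 higher (dendritic cell and Mb macrophage) in all aged than in all young mice. Of the 3 Mb markers, Cd74 was at 188 to 576 CPM in young and 617 to 8697 in aged mice, Spic was at 0 in all mice, and Lyz2 was at 8.17 to 20.4 CPM in young and 0 to 2.12 in aged mice. Of the 4 dendritic cell markers, Traf1 was at 12 to 24.7 CPM in young and 90.1 to 108 in aged mice, Napsa was at 0 to 1.37 and 0 to 3.18, Cd209a was at 0 to 6.87 in young and 0 in all aged mice, and Flt3 was at 0 in all mice. Of the 4 myoepithelial markers, Krt14 was at 4.90 to 23.4 CPM in young and 27.6 to 92.0 in aged vascular endothelial cells. Krt17 was at 3.27 to 18.5 and 34.8 to 74.3 CPM, and Krt5 at 0 to 3.40 and 0 to 8.25. Acta2 went the other way in its mean, at 28.3 to 74.2 CPM in young and 14.7 to 43.8 in aged mice. The sum of the 4 overlapped between the ages (38.1 to 102 and 79.3 to 218 CPM). The part of these transcripts in the results was not tested.

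In myoepithelial cells, 2 of 6 members fell and none rose, where 14.8% of all genes were lower and 12.8% higher (27.6% passed in all). Timp2 was at 182, 182 and 195 CPM in young and 113, 104, 102 and 91.8 CPM in aged mice, with no overlap (34.8% of all genes in these cells had none). The change of Timp2 was −0.76 (SE 0.178, edgeR adjusted p = 0.0048). Mmp23 was at 16.1, 9.83 and 22.7 CPM in young and 2.76, 6.2, 4.62 and 5.13 CPM in aged mice, from 26 and 33 UMIs, and changed by −1.61 (SE 0.437, edgeR adjusted p = 0.0121). Without Young C its adjusted p was 0.0654, and without Young A or without Aged A, B or D it had too few counts to be tested.

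The 6 fibroblast genes were also lower in aged myoepithelial cells, at 331 to 738 CPM against 1013 to 1324 in young mice. If all RNA of these genes in myoepithelial cells came with fibroblast RNA in the proportions found in fibroblasts, Timp2 would stand at 90.0 CPM in young and 30.6 in aged mice, where 186 and 103 were measured, and Mmp23 at 7.0 and 1.1 CPM, where 16.2 and 4.68 were measured. Among the marker lists of the 11 other types, those of HS cells (45.3 to 108 CPM in young and 9.23 to 37.7 in aged mice) and Mb macrophages (167 to 256 and 34.1 to 71.9) were, with that of fibroblasts, also lower in all aged mice. Of the 6 fibroblast genes, Dcn had a mean of 514 CPM in young and 123 in aged mice, where the sum had 1182 and 578. The study itself lists Dcn among the matrix genes that decreased in aged myoepithelial cells. Col1a1, Col1a2 and Col3a1 were at 1.67, 6.31 and 0.947 CPM in aged mice, so most of the aged sum was Gsn and Serping1. The origin of all this RNA and its part in these calls were not tested. Timp1 did not pass in myoepithelial cells, at 38.7, 44.2 and 55.2 CPM in young and 144, 71.0, 38.5 and 63.3 CPM in aged mice (log2 0.93, SE 0.358, edgeR adjusted p = 0.062). Without Aged C, the lowest of the aged mice, Timp1 passed (1.12, edgeR adjusted p = 0.0142). Mmp14 had a difference of 0.60 (SE 0.272, edgeR adjusted p = 0.109), and Mmp2 and Timp3 had −0.23 and −0.05.

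In AV cells, the secretory precursors of the luminal layer, 2 of 7 members fell and none rose, where 3.26% of all genes were lower and 2.9% higher (6.16% passed in all). Mmp2 was at 14.4, 8.99 and 12 CPM in young and 4.11, 0.80, 1.36 and 2.74 CPM in aged mice, a change of −2.21 (SE 0.505, edgeR adjusted p = 0.0297). Mmp3 was at 8.66, 1.80 and 5.79 CPM in young and 1.65, 0.30, 0.27 and 0.81 CPM in aged mice, a change of −2.80 (SE 0.642, edgeR adjusted p = 0.0303). The groups did not overlap for either gene (25.6% of all genes in AV cells), but the counts were low, 59 and 60 UMIs of Mmp2 and 30 and 20 of Mmp3 in young and aged mice.

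Both calls in AV cells had the same direction as the sum of the fibroblast genes. The 6 fibroblast genes summed to 198 to 699 CPM in young and 40.1 to 108 CPM in aged AV cells, and at the fibroblast proportions these would bring Mmp2 to 9.19 and 1.48 CPM, where 11.8 and 2.25 were measured, and Mmp3 to 3.83 and 1.13 CPM, where 5.41 and 0.756 were measured. In aged mice the mean sum was 79.7 CPM, with Dcn at 15.3, Col1a1 at 0.863, Col1a2 at 1.00 and Col3a1 at 0.369. Gsn and Serping1 thus made up most of it, and the aged levels at the fibroblast proportions rest mainly on them. Marker lists of HS cells, fibroblasts, vascular endothelial cells, pericytes and Mb macrophages were all lower in every aged than in every young mouse. The part of these lists and of the fibroblast genes was not tested. Mmp2 lost its call by edgeR without Young A (adjusted p = 0.112), Young B (0.0599), Young C (0.116) or Aged C (0.080), and Mmp3 without Young A (0.146) or Young C (0.120), while without any 1 aged mouse Mmp3 had too few counts to be tested. The inhibitors of AV cells had small differences, −0.07 for Timp1 (SE 0.396), −0.03 for Timp2 (SE 0.256) and 0.38 for Timp3 (SE 0.439). Mmp23 was at 2.89, 1.80 and 3.31 CPM in young and 0.165, 0.997, 0 and 0.644 CPM in aged AV cells, from 14 and 15 UMIs, with no overlap, and its difference of −2.26 did not pass (SE 0.797, edgeR adjusted p = 0.119). Mmp14 had a difference of −0.24 in AV cells (SE 0.276, edgeR adjusted p = 0.663).

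In HS cells, pericytes, lymphatic endothelial cells and Mb macrophages no member passed the edgeR test, where 6.26%, 11.8%, 2.63% and 1.16% of all genes did (3.93%, 7.19%, 2.02% and 0.931% higher, and 2.33%, 4.61%, 0.607% and 0.233% lower). In HS cells, Timp2 (0.48, SE 0.18, edgeR adjusted p = 0.130) was the 1 member of 4 with an unadjusted p under 0.05. The 6 fibroblast genes there summed to 393 to 698 CPM in young and 702 to 2024 CPM in aged mice. Of these 6 genes, 5 had a lower mean in aged HS cells, and only Dcn was higher, at 52.0 to 85.6 CPM in young and 286 to 1825 in aged mice. The other 3 members tested in HS cells had differences of 0.37 for Mmp14 (SE 0.188), 0.01 for Timp1 (SE 0.271) and 0.56 for Timp3 (SE 0.453). In lymphatic endothelial cells, Timp2 was at 878 and 1056 CPM in 2 young mice and 348, 404 and 381 CPM in 3 aged mice, a difference of −1.39 that did not pass (SE 0.307, edgeR adjusted p = 0.0739). The 2 groups did not overlap, as for 36.8% of all genes in these cells, and the values rest on 9 young and 19 aged cells. Timp3 in lymphatic endothelial cells, at 1692 and 1267 CPM in young and 1043, 788 and 604 CPM in aged mice, did not overlap either, and its difference of −0.94 did not pass (SE 0.352, edgeR adjusted p = 0.222). In pericytes, Timp3 was at 1815, 2048 and 1473 CPM in young and 1365, 1616, 1108 and 1132 CPM in aged mice, with overlapping groups (26.6% of all genes did not overlap) and a difference of −0.29 (SE 0.191, edgeR adjusted p = 0.359). The other 2 members tested in pericytes had differences of 0.80 for Mmp14 (SE 0.460) and −0.38 for Timp2 (SE 0.339). Of 11 marker lists of other types, 4 were lower in all aged pericyte sums (HS, fibroblast, vascular endothelial and dendritic cell) and 1 higher (myoepithelial). That of vascular endothelial cells was at 1628 to 1759 CPM in young and 733 to 1244 in aged mice. The myoepithelial list was at 1116 to 1184 and 3078 to 6856 CPM. The part of this RNA in the pericyte values was not tested.

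The macrophage pair was measured in few aged cells, 9, 6, 4 and 3 Mb macrophages in Aged A, B, C and D. Mmp12 was at 431, 1042 and 442 CPM in young and 1022, 968, 310 and 2009 CPM in aged mice, and Mmp13 at 160, 599 and 205 CPM in young and 524, 334, 658 and 369 CPM in aged mice. Both groups overlapped for both genes, and neither the difference of 1.07 for Mmp12 (SE 0.580, edgeR adjusted p = 0.337) nor that of 0.87 for Mmp13 (SE 0.513, edgeR adjusted p = 0.368) passed. Without Aged D the difference of Mmp12 was 0.54. Timp2 in the same cells was at 291, 300 and 464 CPM in young and 223, 134, 271 and 41.0 CPM in aged mice, with no overlap (23.4% of all genes had none) and a difference of −0.75 (SE 0.478, edgeR adjusted p = 0.398). The value for Aged D came from 1 UMI. Mmp14 had a difference of 0.03 in Mb macrophages (SE 0.593).

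**Figure D2:**
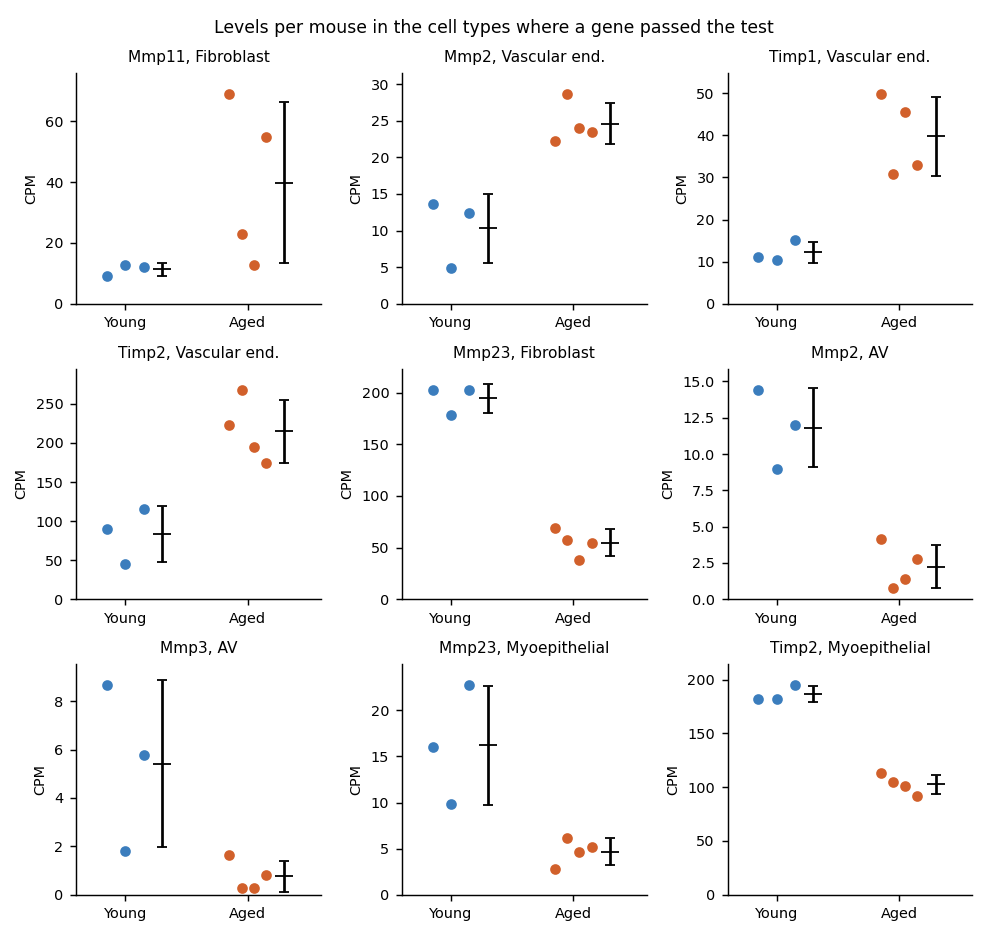
Level of a gene in CPM (vertical axis, from 0) in each young (blue) and aged (orange) mouse, for the 9 pairs of gene and cell type that passed the edgeR test, with mean ± SD beside the points. The groups do not overlap in 8 of the panels, and in the panel of Mmp11 in fibroblasts Aged C, at 12.7 CPM, lies among the young mice.

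**Figure D3:**
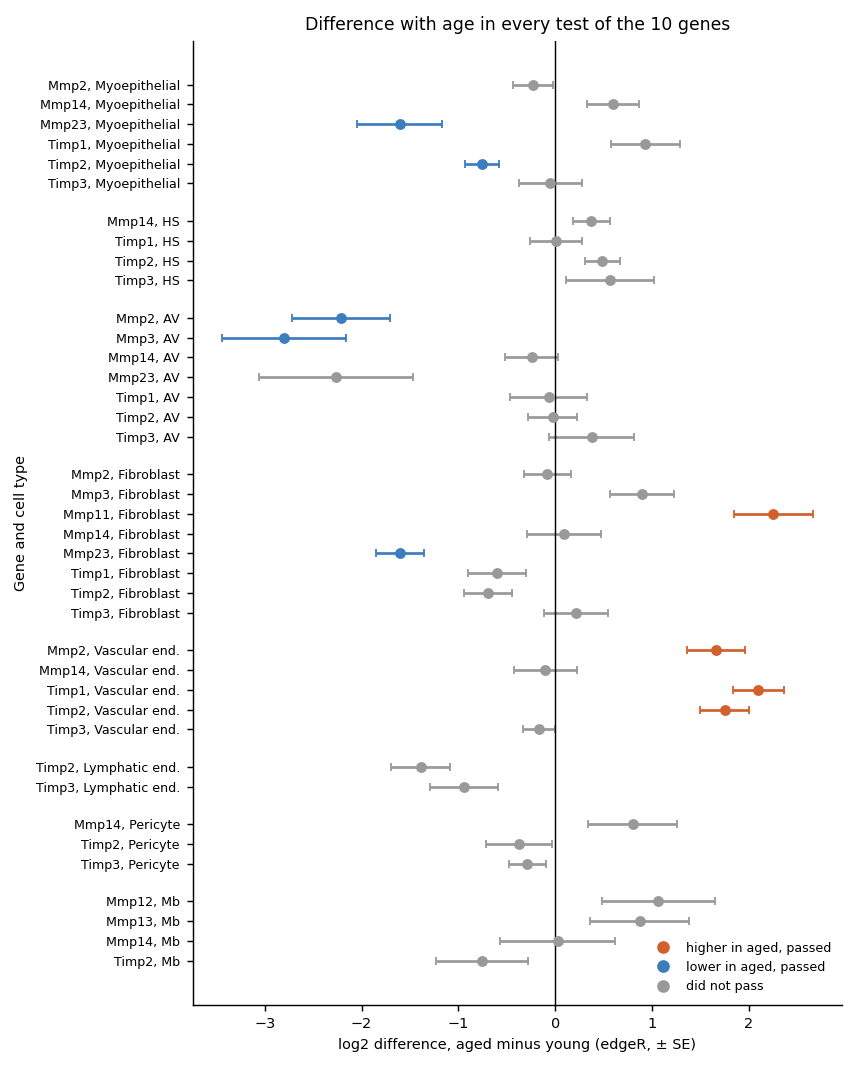
Log2 difference between aged and young mice (horizontal axis) with its SE for each of the 39 tests of a member in a cell type. Orange points passed as higher in aged mice (4), blue points as lower (5), and gray points did not pass (30). Values range from −2.80 for Mmp3 in AV cells to 2.25 for Mmp11 in fibroblasts.

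The age effect of 5 members differed between cell types, and Mmp2 and Timp2 were called in opposite directions, both higher in vascular endothelial cells, with Mmp2 lower in AV cells and Timp2 in myoepithelial cells. The difference of the age effect was tested in all 15 pairs of 6 cell types, with the mouse as a block, and 22 of 91 tests of a member passed, against 6.75% over all genes and pairs. Of these 22, 14 involved vascular endothelial cells, which took part in 29 of the tests. The share over all genes was not computed for the pairs with vascular endothelial cells alone. Calls by age were common in that type (26.7% of all genes), so this count is not a trait of the members. Timp2 differed in 8 of 15 pairs, for example by 2.45 between vascular endothelial and myoepithelial cells (SE 0.250, edgeR adjusted p = 3.4e-07), where it rose in the first and fell in the second. Timp1 differed in 5 of 15, Mmp2 in 6 of 13, Mmp11 in 2 of 4 and Mmp3 in 1 of 6 pairs. Some of the tests that passed took in a type where the member had too few counts to be tested alone. These were Mmp11 in vascular endothelial and myoepithelial cells (17 and 5 UMIs), Mmp2 in HS cells (65 UMIs) and Timp1 in pericytes (31 UMIs). Both differences of Mmp11 are of this kind. Mmp14, Timp3 and Mmp23 passed in 0 of 15, 0 of 15 and 0 of 8 pairs, so a difference between cell types in their age effect was not shown by edgeR.

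Summed metalloproteinase UMIs were then set against summed TIMP UMIs within each library. The sums held the members only, so Timp4 was left out, which had a mean of 432 CPM in young and 35.7 in aged vascular endothelial cells. In young mice the MMP share of both was 72.4% ± 12.3 in Mb macrophages, 34.5% ± 2.52 in HS cells, 31.0% ± 5.34 in myoepithelial cells, 26.5% ± 3.12 in fibroblasts, 13.6% ± 4.12 in AV cells, 3.10% ± 1.48 in vascular endothelial cells and 3.02% ± 1.98 in pericytes (SD, n = 3). In aged mice these shares were 89.5% ± 7.15, 30.6% ± 8.31, 31.3% ± 3.98, 33.5% ± 4.83, 7.4% ± 1.38, 3.65% ± 0.303 and 4.43% ± 1.91 (SD, n = 4). TIMP transcripts were thus in the majority in every one of these types except Mb macrophages. In AV cells the share was 18.4%, 10.8% and 11.7% in young and 6.81%, 7.53%, 6.01% and 9.25% in aged mice, with no overlap (exact two-sided permutation test over 35 divisions, p = 0.0286, the smallest possible, adjusted p = 0.229 over 8 types). In fibroblasts it was 29.2%, 23.1% and 27.2% in young and 38.3%, 34.7%, 26.8% and 34.0% in aged mice (exact permutation p = 0.114, adjusted p = 0.305). In lymphatic endothelial cells it was 1.20% and 2.22% in 2 young mice and 3.33%, 0% and 3.03% in Aged B, C and D, with overlap, from 0 or 1 MMP UMI in each mouse. Aged C, with 0 MMP and 60 TIMP UMIs, has no log ratio and did not enter that test. After adjustment 0 of 8 types passed, and AV cells were the 1 type with an unadjusted exact p under 0.05.

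**Figure D4:**
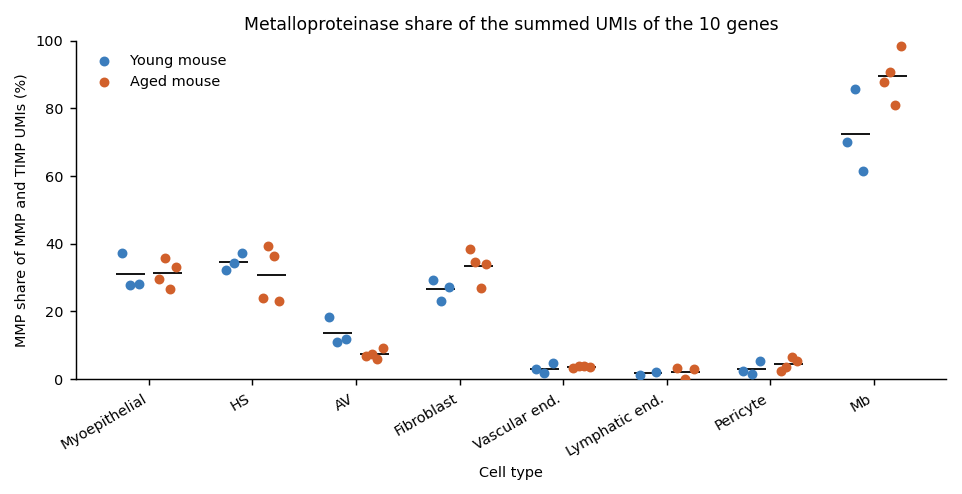
Share of metalloproteinase UMIs among the summed UMIs of the 10 genes (vertical axis, %) in each young (blue) and aged (orange) mouse, by cell type, with the group mean as a line. Mb macrophages lie above 60% in all mice, and endothelial cells and pericytes lie below 7%, with 1 aged mouse at 0% in lymphatic endothelial cells.

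Summed over all cells of a mouse, as a bulk sample would hold them, all 10 members had a lower mean in aged mice, although 0 of 10 passed the exact permutation test after adjustment and 5 overlapped between the groups. Fewer cells of a type and less RNA per cell cannot be told apart in such sums. Mmp23 was at 47.5, 24.4 and 62.7 CPM in young and 4.26, 2.41, 0.686 and 1.86 CPM in aged mice, a difference in mean log2(CPM + 1) of −3.81 (exact two-sided permutation p = 0.0286, adjusted p = 0.0714 over 10 genes). Timp2 was at 527, 459 and 953 CPM in young and 257, 137, 142 and 135 CPM in aged mice, a difference of −1.92 with the same exact p and adjusted p (0.0286 and 0.0714). Mmp2 (−2.39) and Timp3 (−1.03) also reached this smallest possible p, and Mmp14 (−0.92) had an exact permutation p of 0.0571. The groups did not overlap for these 5 genes, and 50.1% of all genes did not overlap in the whole samples. Of the 10 members 4 had an unadjusted exact p under 0.05, and edgeR on the same sums called 3 lower, Mmp2 (adjusted p = 0.0075), Mmp23 (0.0014) and Timp2 (0.0060), where it called 32.7% of all genes, 16.8% lower.

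The makeup of the samples moved with these sums. Fibroblasts held 92.5% of Mmp2 UMIs in young mice and 38.0% in aged mice, where myoepithelial cells held 46.1%. They held 86.3% of Timp2 UMIs in young and 18.6% in aged mice, where AV cells held 51.8%. For Timp1 the fibroblast share was 70.8% in young and 4.59% in aged mice, for Mmp14 57.4% and 9.51%, and for Mmp23 95.5% and 52.7%, while Mmp3 stayed a fibroblast transcript (94.6% and 92.3%). At the mean makeup of the young mice, computed over 8 cell types that held 90.4% of the young UMIs, the difference of Mmp2 was −0.18 (exact permutation p = 0.457), that of Timp2 −0.61 (p = 0.0857, exact) and that of Mmp23 −1.79 (exact p = 0.0286). Mmp3 was at −2.74 in the whole samples and at 0.55 at the young makeup, and Mmp12, Mmp13 and Mmp11 also had differences of opposite sign on the 2 scales.

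**Figure D5:**
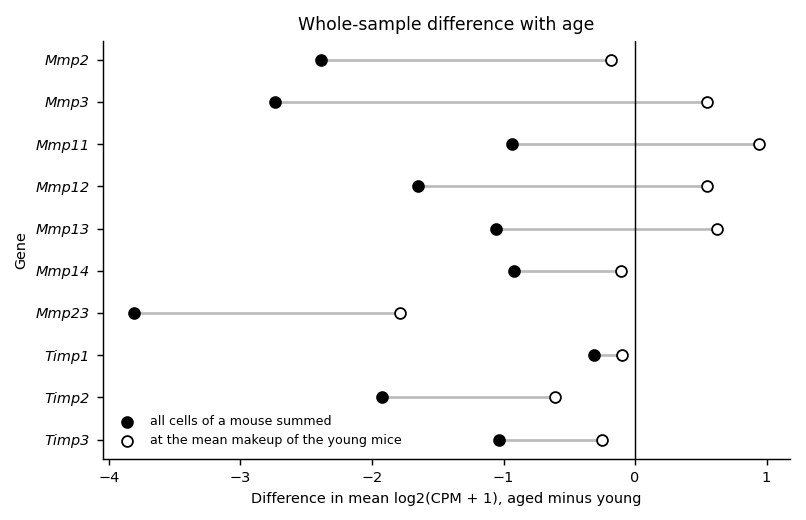
Difference in mean log2(CPM + 1) between aged and young mice (horizontal axis) for each gene, with all cells of a mouse summed (filled) and with each cell type weighted by its mean share in the young mice (open). The open point is closer to 0 than the filled point in 9 of the 10 genes, all but Mmp11 (−0.93 and 0.94), and Mmp23 stays lowest on both (−3.81 and −1.79).

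Within a cell type the members also differed in how many cells held them. With each cell thinned to 2000 UMIs, Timp2 was found in 89.6% of young and 78.4% of aged fibroblasts, Mmp2 in 63.5% and 62.9%, Mmp23 in 31.4% and 8.76%, Mmp14 in 22.0% and 23.7%, Mmp3 in 20.4% and 31.4%, Timp1 in 17.1% and 10.8%, and Mmp11 in 2.22% and 9.28%. In vascular endothelial cells, thinned shares were 12% of young and 33.4% of aged cells for Timp2. As a background, thinned shares of Mmp12 were 0.167% and 0% in fibroblasts (0 of 194 aged cells allows up to 1.55%, and median cells held 4411 and 4446.5 UMIs), against 45.2% and 63.6% in Mb macrophages, whose median cells held 5112 and 6490 UMIs. Mmp3 was concentrated in few fibroblasts: the tenth of the cells with most Mmp3 held 71.8% of its UMIs in young and 65.3% in aged mice, against 30.7% and 32.0% for Mmp2. In Mb macrophages as deposited, 94 of 146 cells had a UMI of Mmp12, 60 of Mmp13 and 42 (28.8%, 95% Wilson interval 22.0 to 36.6) of both. A UMI of each of Mmp2, Mmp14 and Timp2, the parts of the pro-Mmp2 activation complex, was found in 36.1% of 1993 fibroblasts as deposited and in 14.4% after thinning. These intervals and shares cover counting error only.

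Fibroblasts with a UMI of Dpp4 or Pi16, genes known from fibroblasts of the adventitia and fascia, and those with a UMI of Col15a1 alone carried different members. In the 4 mice with at least 10 cells of each, Timp2 was at 3190 ± 589 CPM in the first and 933 ± 170 in the second, Mmp23 at 214 and 89.4, and Timp3 at 641 and 359, each higher in the first in 4 of 4 mice. Mmp3 was at 146 and 603 CPM and Timp1 at 42.8 and 195 CPM, each lower in the first in 4 of 4 mice, while Mmp2 (535 and 593 CPM) was higher in the first in 2 of 4. These subsets were cut from the same counts and are a description.

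Over the 58 sums of a mouse and a cell type with at least 10 cells, the 3 genes most like each member were found by Pearson's r of log2(CPM + 1) among 5232 genes, as a description of points that share libraries and depth. Mmp2 was most like Serpinf1 (r = 0.88), Aebp1 and Pdpn. Mmp3 was most like Cpxm1 (0.93), Tmeff2 and Gdf10. Mmp11 was most like Lox (0.81), Krtdap and Gdf10, and Mmp23 most like Adamts2 (0.88), Arhgap20 and Col5a1. Mmp12 was most like Dpys (0.93), Ocstamp and Dcstamp, and Mmp13 most like H2-M2 (0.94), Cd207 and Spic. Mmp14 had the weakest best match, Itgb5 (0.73), followed by Tex264 and Cd63. Timp1 was most like Tpbg (0.76), Hspb8 and Mme, Timp2 most like Il11ra1 (0.80), Rnase4 and Clec3b, and Timp3 most like Ehd2 (0.92), Adamts1 and Plpp3. Among the members themselves, Mmp3 and Mmp23 (0.82), Mmp2 and Mmp23 (0.79) and Mmp12 and Mmp13 (0.79) were the most alike pairs.

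The wider pericellular protease system was followed as 49 genes in 4 lists, of which 34 were tested in some type, 15 in none, and 5 had no UMI. Of 147 tests, 12 were higher and 14 lower in aged mice, over 17 genes, where 6.53% and 5.85% of all tests were. In vascular endothelial cells 5 of 22 rose and 4 fell (median −0.06), where 14.7% of all genes rose and 12% fell. In myoepithelial cells 5 of 22 rose and 4 fell (median 0.31), against 12.8% and 14.8% of all genes. In AV cells 0 of 31 rose and 5 fell (median −0.53), against 2.9% and 3.26%. In HS cells 2 of 17 rose (3.93% of all genes), in pericytes 1 of 12 fell (4.61%), and in fibroblasts 0 of 26 passed (3.17%). The median over all genes was −0.05, 0.01 and 0.02 in vascular endothelial, myoepithelial and AV cells.

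Timp4, the remaining TIMP gene, fell in vascular endothelial cells, from 513, 508 and 275 CPM in young to 21.2, 31.4, 33.0 and 57.1 CPM in aged mice (−3.20, SE 0.288, edgeR adjusted p = 5.8e-06), the opposite direction to Timp1 and Timp2 in these cells. It also fell in AV cells (−4.25), where its young mean was 4.74 CPM. Adamts4, an aggrecanase, rose in vascular endothelial cells (1.81), and Adamts9, of the same family, fell in pericytes from 597, 578 and 553 CPM to 278, 159, 187 and 249 CPM (−1.27, edgeR adjusted p = 0.0032). Marker RNA of vascular endothelial cells was also lower in aged pericytes, and its part in the fall of Adamts9 was not tested. Cd44, a hyaluronan receptor that can dock metalloproteinases at the cell surface, rose in myoepithelial cells (2.04). Pcolce, the enhancer of procollagen C-proteinase, fell in myoepithelial (−1.71), AV (−2.72) and vascular endothelial cells (−1.98) and rose in HS cells (1.48). The summed fibroblast genes had the same directions in these 4 types, but in HS cells the sum rose through Dcn alone, while 5 of the 6 genes had a lower mean in aged mice. The part of these genes was not tested. Adam10, a membrane sheddase, fell in myoepithelial (−1.69) and AV cells (−1.38), Mmp19 fell in AV cells (−5.03), where no aged mouse was above 0.165 CPM, and Mmp15 rose in HS cells (0.76).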

How the data were processed

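Single cells of abdominal mammary glands from 3 young and 4 aged mice were analysed. The authors made 1 10x 3′ library per mouse, mapped reads to mm10 with Cell Ranger 2.0, filtered the cells, estimated doublets with Scrublet and DoubletFinder and deposited a matrix of unnormalized UMI counts. In a table of cells, the authors also deposited the fraction of mitochondrial UMIs and Seurat cell cycle scores (S and G2M score), which entered no result here, and the cell types, used as named. No doublet caller was run here and no cell was removed as a doublet. The members and the gene lists were chosen with earlier results of these data known.

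For each mouse and each type with at least 3 cells, counts were added up. After filterByExpr and TMM scaling, the quasi-likelihood test of edgeR 4.0.16 (R 4.3.3) was used, with Benjamini-Hochberg adjustment over all genes of a type. The script was tested on simulated data. CPM in the text use library totals, with a pseudocount of 1 on the log scale. Ma macrophages, with 1 aged cell, could not be compared by age. Single values were compared by an exact two-sided permutation test. Wilson intervals and shares cover counting error only. Shares of cells with a UMI were computed after drawing 2000 UMIs from every cell. The mice differed in depth from 6652599 to 16999625 UMIs, with medians of 4758.5 to 7109.5 UMIs per cell. Alternatives were DESeq2 1.42.0, RLE factors, library totals (added after seeing the data), no filter, at least 10 cells, no fold minimum, no ribosomal and mitochondrial genes, a replicate block and leaving out each mouse. All 10 members are named wherever tested. Of the pathway genes, at most 4 called and non-overlapping ones per type with the largest change are named. The values of 1 of these genes are not reported here. For likeness, the 3 most correlated genes of at least 50 CPM in some type are named. Positions are from the GENCODE annotation of GRCm38.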

Additional observations from a re-analysis of the deposited data

Results flagged for a closer look

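In 37 groups of 4 aged mice, a sample stood apart from the others (Dixon's criterion, which chance meets in about 1 in 20 groups) for Mmp3 in fibroblasts, where Aged A had 661.97 CPM and the others 258.88 to 283.42, and for Timp2 in AV cells, where Aged A had 184.93 CPM and the others 122.29 to 127.89.

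The age effect of 5 members differed between cell types by the edgeR interaction test (log2 difference of the age effects, aged against young, with its adjusted p). For Mmp2, the effect in vascular endothelial cells exceeded that in fibroblasts by 1.66 (0.0094), in AV cells by 3.88 (0.00084), in HS cells by 3.56 (0.0044) and in myoepithelial cells by 1.79 (0.0010), that in fibroblasts minus AV cells was 1.90 (0.0030), and that in AV minus myoepithelial cells was −2.22 (0.0056). For Mmp3, fibroblasts minus AV cells was 3.28 (5.0e-06). For Mmp11, vascular endothelial cells minus fibroblasts was −4.50 (0.0073) and fibroblasts minus myoepithelial cells 5.18 (0.034). Mmp11 had only 17 UMIs in vascular endothelial and 5 in myoepithelial cells, too few to be tested in either type alone. The same holds for Mmp2 in HS cells (65 UMIs) and for Timp1 in pericytes (31 UMIs).

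For Timp1, vascular endothelial cells exceeded fibroblasts by 2.63 (edgeR adjusted p = 8.0e-05), AV cells by 2.27 (0.0018) and HS cells by 2.05 (0.00066), while fibroblasts minus myoepithelial cells was −1.81 (0.011) and pericytes minus vascular endothelial cells −2.87 (0.013). For Timp2, vascular endothelial cells exceeded fibroblasts by 2.46 (0.00010), AV cells by 1.76 (0.0013), HS cells by 1.40 (0.0022) and myoepithelial cells by 2.45 (3.4e-07), fibroblasts minus AV cells was −1.02 (0.030), fibroblasts minus HS cells −1.20 (0.021), HS minus myoepithelial cells 1.15 (0.0060) and pericytes minus vascular endothelial cells −2.17 (7.5e-05).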

How the results depend on the processing

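The counts of members called by age (4 higher, 5 lower) were 6 and 8 without a filter on low counts, and 3 to 5 higher and 2 to 4 lower when each mouse was left out in turn. The 9 called differences kept their direction in every setting in which they could be fitted. Mmp2, Timp1 and Timp2 in vascular endothelial cells and Timp2 in myoepithelial cells kept their calls in 15 of 15 settings. Calls gained without the filter were Timp1 (edgeR adjusted p = 0.0019) and Mmp14 (0.049) in myoepithelial cells as higher, and Mmp12 in myoepithelial cells, Mmp2 in HS cells and Timp2 in fibroblasts as lower. That of Mmp12 rests on 4 UMIs in young and 0 in aged myoepithelial cells. Mmp14 in myoepithelial cells also passed without Aged D (0.038), and Mmp3 in AV cells was not in the fit without ribosomal and mitochondrial genes. Of 18 small differences that were not called, 11 turned sign in some setting. The number of differences between cell types was 17 to 24 with 1 mouse left out (22 with all). The cause of these changes was not tested.

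In whole samples edgeR called 3 members where the permutation test called 0. The log2 ratio of MMP to TIMP UMIs (0.03 in myoepithelial and 0.36 in vascular endothelial cells) ran from −0.077 to 0.23 in myoepithelial cells with 1 mouse left out (−0.077 without Young B, −0.068 without Young C, −0.068 without Aged B and −0.015 without Aged D) and from −0.031 (without Young B) to 0.72 in vascular endothelial cells. Without the highest member of each family, and without mice then at 0, it moved by over 1.5 times in 5 of 6 types, to −2.41 in vascular endothelial cells, −2.41 in HS cells (from −0.28), −2.29 in AV cells (from −0.96), 0.06 in fibroblasts (from 0.48) and 0.34 in myoepithelial cells. In lymphatic endothelial cells it was 0.98, and 0.31 with 1 UMI added to each sum.

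In cells as deposited, the shares with a UMI in young and aged fibroblasts were 85.9% and 86.1% for Mmp2, 29.3% and 45.4% for Mmp3, 4.17% and 14.9% for Mmp11, 40.5% and 43.3% for Mmp14, 55.5% and 20.6% for Mmp23, 28.3% and 23.7% for Timp1 and 97.1% and 92.3% for Timp2. For Timp3 in pericytes they were 98.7% and 94.1%, and in young Mb macrophages 62.1% for Mmp12 and 38.7% for Mmp13.

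With the letter of the mouse as a replicate block, 3 members were higher and 4 lower, as Mmp11 (2.06, edgeR adjusted p = 0.189) and Mmp23 (−1.63, 0.0725) in fibroblasts no longer passed. Deviations of same-lettered mice correlated at −0.126, −0.177 and −0.189 over all cells and at −0.323 to 0.121 within cell types, so not every correlation was over 0.1 and the letters were not taken as pairs. In whole samples the block left the pairs of mice A, B and C, for which the exact permutation p cannot fall below 0.25. No member could pass there, so this setting decides nothing. Few aged fibroblasts and Mb macrophages (194 and 22) limit what could be detected there.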
